A study of Rattus norvegicus with 2 samples.

Results

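The genes described here are the protein factors that start, extend and end translation on cytosolic ribosomes, with the kinases, inhibitors and modifying enzymes named after them. Members were chosen by symbol: every probe set assigned to exactly 1 gene whose symbol starts with Eif1 to Eif6, Eef1 or Eef2, or is Etf1, Pabpc1 or Pa2g4. This gave 68 probe sets of 58 genes, out of 12783 probe sets of 10411 genes with 1 symbol. No probe set with 1 symbol was found for Pabpc1, the poly(A)-binding protein, and those of Eif5 and Eif3e carry a second symbol, so these 3 genes are not described.

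RNA came from cultured rat sympathetic neurons, the noradrenergic neurons of the peripheral nervous system, and was hybridised to the Affymetrix Rat Expression Set 230A. The first of 2 arrays held neurons cultured without their target, called neurons alone below. The other held neurons that had been cultured with myocytes, the muscle target, and were then lifted off the dish in EDTA, called co-cultured neurons. No strain, age or days in culture were used as labels, and the myocyte type is not named. The description field of the co-culture sample speaks of neurons grown alone, so its group rests on the title and source name. With 1 array per condition, no difference has a replicate check, no test was made, and each value compares these 2 arrays and not the conditions. The series asks which transcripts accompany the growth arrest of neurons on contact with their target.

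Translation begins when the eIF4 factors bind the capped end of an mRNA and eIF3 brings the small ribosomal subunit, loaded with initiator tRNA by eIF2. eIF2 must be recharged with GTP by eIF2B after each round, and kinases that phosphorylate it slow initiation throughout the cell. In elongation, eEF1A delivers each aminoacyl-tRNA, the eEF1B complex recharges eEF1A, and eEF2 moves the ribosome along. eEF1A is made from a pair of genes: Eef1a1 is expressed in most cells, whereas Eef1a2 takes over in mature neurons and in muscle. Many of these factors, like the ribosomal proteins, are encoded by mRNAs whose first bases are an unbroken run of pyrimidines (C or T), the terminal oligopyrimidine (TOP) tract, through which mTOR controls their translation.

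The 50 bases around the annotated gene start (25 before and 25 after, 5′ to 3′ in the direction of the gene) are printed from RefSeq for 8 members. They are the pair of eEF1A genes, 3 other elongation factors, 2 eIF3 subunits and Pa2g4. All 8 have a run of C and T of at least 8 bases, against 16 of 53 member genes with a promoter entry, so they do not stand for the members. Eif3a and Eef2k, whose longest runs are 6 and 5 bases, are not printed. Capitals mark the longest run of C and T anywhere in the window, which need not lie at the start of the mRNA. The build is GRCr8, and the positions are chr8:88225045-88225094 on the minus strand for Eef1a1, chr3:188652609-188652658 on the minus strand for Eef1a2, chr9:72074066-72074115 on the plus strand for Eef1b2, chr1:215289790-215289839 on the plus strand for Eef1g, chr7:9189214-9189263 on the minus strand for Eef2, chr1:172369037-172369086 on the plus strand for Eif3f, chr1:93397463-93397512 on the minus strand for Eif3k and chr7:1576770-1576819 on the minus strand for Pa2g4.
Eef1a1: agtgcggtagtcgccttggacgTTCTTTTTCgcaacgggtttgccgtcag
Eef1a2: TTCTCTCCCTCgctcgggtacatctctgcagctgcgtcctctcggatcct
Eef1b2: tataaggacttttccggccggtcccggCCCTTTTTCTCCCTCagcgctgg
Eef1g: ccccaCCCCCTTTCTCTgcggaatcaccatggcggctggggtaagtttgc
Eef2: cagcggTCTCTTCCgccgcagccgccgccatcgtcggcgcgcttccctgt
Eif3f: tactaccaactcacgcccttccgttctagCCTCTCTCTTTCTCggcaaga
Eif3k: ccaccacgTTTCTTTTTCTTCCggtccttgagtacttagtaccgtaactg
Pa2g4: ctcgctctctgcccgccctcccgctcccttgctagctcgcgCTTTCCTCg
The run of Eef1a1 is 9 bases long and spans the annotated start, beginning at base -3. In Eef1a2 the longest run, of 11 bases, lies at the upstream edge of the window and may extend beyond it, and the run over its annotated start is 5 bases long. The marked run lies upstream of the annotated start in Eef1g, Eef2 and Eif3k and downstream of it in Eef1b2, Eif3f and Pa2g4, so of the 8 windows Eef1a1 alone has its longest run over that start.

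The translation factors were bright on these arrays. Intensities are the deposited values in arbitrary units, and a probe set was counted as above the filter when it reached its array's median (185.7 in neurons alone, 175.0 in co-cultured neurons) in at least 1 array. Of the 68 member probe sets, 59 passed (86.8%, against 56.5% of all probe sets with 1 symbol), and they cover 54 of the 58 genes. The 75th percentile of an array was reached by 50 of them (73.5%, against 29.3%). The 4 genes with no probe set above the filter were Eef1akmt1 and Eef1akmt4, named for methylation of eEF1A, the eIF2 kinase gene Eif2ak4 and the cap-binding protein gene Eif4e3. The 9 probe sets below the filter lay between 24.4 and 184.3 in neurons alone and between 7.20 and 148.8 in co-cultured neurons.

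**Figure D1:**
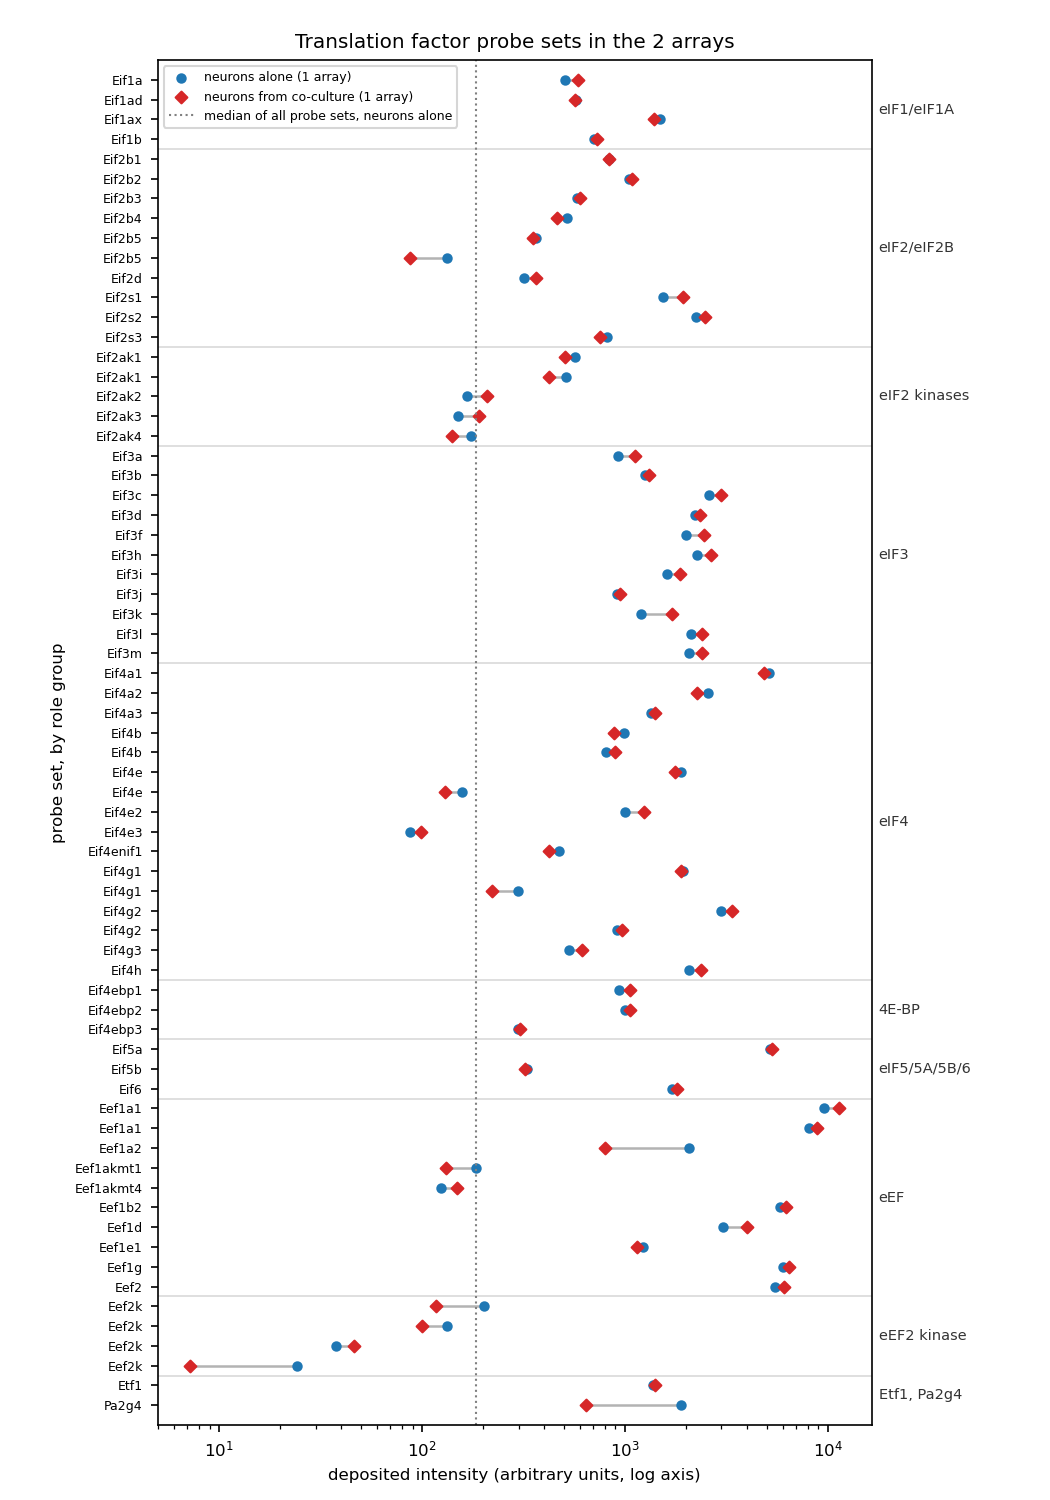
Deposited intensity (log axis, arbitrary units) of all 68 member probe sets, grouped by role, with a circle for the array of neurons alone and a diamond for the array of co-cultured neurons. Most pairs of symbols nearly touch, and the widest gaps among bright probe sets are those of Eef1a2 (2080 and 798) and Pa2g4 (1900 and 647).

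Most members were close in the 2 arrays. Differences are given as the log2 ratio of co-culture over alone, after values under 39.6, the pooled 20th percentile, were set to it. Of the 59 probe sets above the filter, 56 lay within 1.5-fold (94.9%, against 94.0% of all 7225 probe sets above the filter) and 46 within 1.2-fold (78.0%, against 69.3%). Lower in co-culture by 2-fold or more were 2 members (3.39%), Pa2g4 and Eef1a2, against 0.900% of all probe sets above the filter. Pa2g4 is in the rule by its own name, and members were chosen with earlier results of these data known. The share of 3.39% can therefore reflect that choice. No member was 2-fold higher, where the background was 0.332%. At 1.5-fold, 3 members were lower (the third was Eef2k, which passed the filter only through the array where it was high), against a background of 4.06%, and none was higher, against 1.92%. The gap between probe sets of 1 gene gives a scale for these values: over the 749 genes that had more than 1 probe set past the filter, a single probe set's log2 ratio had an SD of 0.29. This was 0.36 in the dimmest of 4 equal groups by signal and 0.21 in the brightest. Of the 59 members, 10 exceeded 0.29 in size (16.9%, against 26.4% of all).

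Small differences leaned towards co-culture. The log2 ratio was above 0 for 40 of 59 member probe sets (67.8%), against 46.0% of all probe sets above the filter, and below 0 for 19 (32.2%, against 54.0%). Their median was 0.07, and that of all was -0.02. Among the 50 members at or above the 75th percentile, 36 were higher, against 51.7% of all such probe sets. The sign of so small a median depended on how the arrays were scaled. Scaling to the spiked control transcripts, chosen after seeing the data, lowers all log2 ratios between values above the floor by the same 0.09: 26 of 59 members (44.1%) were then higher, against 31.8% of all probe sets above the filter, and the medians were -0.02 and -0.12. A scaling of this kind cannot alter the distance between the members' median and that of all probe sets, which was 0.09. Quantile normalization and a lowess correction can, and it was then 0.05.

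**Figure D2:**
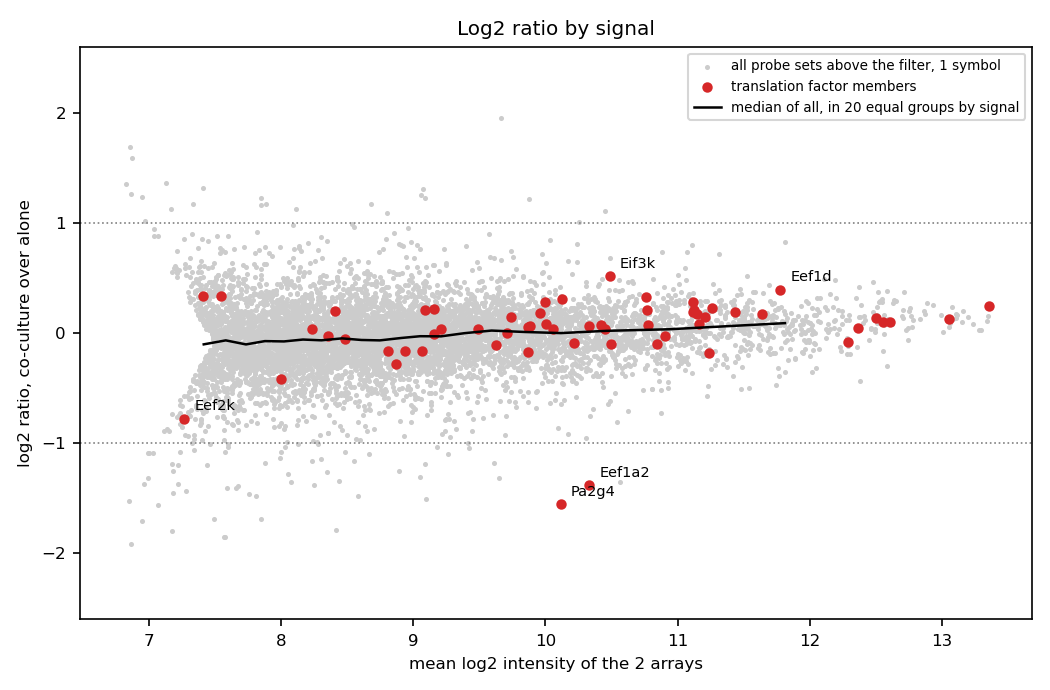
Log2 ratio of co-culture over alone against the mean log2 intensity of both arrays, for the 7225 probe sets above the filter (grey) and the 59 members among them (red), with the median of all probe sets in 20 equal groups by signal (line) and dotted lines at 2-fold. Pa2g4 and Eef1a2 lie below the lower dotted line, and the line of medians climbs to 0.09 in the brightest group, where 10 members sit.

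Pa2g4 encodes a protein that associates with ribosomes and with ErbB3 and is linked to growth control. Its 1 probe set had an intensity of 1900 in neurons alone and 647 in co-cultured neurons. The array of co-cultured neurons was thus the low one, by 2.94-fold (log2 ratio -1.55). From the lowest ratio upward it ranked 11 among 7225 probe sets above the filter and 3 among the 3744 at or above the 75th percentile. Across the processing choices its log2 ratio ran from -1.65 to -1.47. Etf1, the release factor that recognises all stop codons, had 1382 and 1418 (log2 ratio 0.04).

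Eef1a2, the elongation factor gene of mature neurons and muscle, had an intensity of 2080 in neurons alone and 798 in co-cultured neurons. It was 2.61-fold lower in co-culture (log2 ratio -1.38, from -1.48 to -1.30 across the processing choices) and ranked 23 of 7225 from the lowest ratio, or 7 of 3744 among the bright probe sets. Its general counterpart Eef1a1 went the other way on both of its probe sets. The first had 9601 in neurons alone and 11389 in co-cultured neurons (log2 ratio 0.25). The other, designed for several transcripts, had 8104 and 8867 (0.13, or -0.01 after a lowess correction). The log2 ratio of Eef1a2 minus that of Eef1a1 was therefore -1.63 on the first probe set and -1.51 on the other, or 3.09-fold and 2.85-fold. These are differences between ratios, since the levels of separate probes cannot be set against each other. The coding sequences of the pair are similar, and Eef1a1 has many processed copies in mammalian genomes, so shared hybridisation between them cannot be told apart here.

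Markers of neurons moved in the same direction as Eef1a2 and Pa2g4. Of 18 probe sets for 13 sympathetic neuron markers, 16 were above the filter. All 16 were lower in co-culture, against 54.0% of all probe sets above the filter. The 16 had a median log2 ratio of -0.25 and a range from -1.39 to -0.02. Over all 18, the summed intensity was 41108 in neurons alone and 34040 in co-cultured neurons. The catecholamine enzyme gene Th had 6175 and 4575, and 1 of the 16 marker probe sets, of the transcription factor gene Hand2, had a lower ratio than Eef1a2 (331 and 126, log2 ratio -1.39). It passed the filter only through the array where it was high, and the brighter probe set of Hand2 had 484 and 428 (-0.18). None had a lower ratio than Pa2g4. Fewer neurons and less RNA of these genes per neuron cannot be told apart in such bulk RNA, and the part of neuron content in the ratios of Eef1a2 and Pa2g4 was not tested.

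Markers of other cells were present too. All 13 probe sets for 10 fibroblast markers were above the filter and higher in co-culture, with summed intensities of 55108 and 61830. Their median was 0.14 over probe sets and 0.24 over genes, with a range from 0.04 to 1.09. Of all probe sets above the filter, 46.0% were higher. In the brightest of 20 equal groups by signal, to which those of Col1a1 and Col1a2 belong, 72.7% were higher with a median of 0.09. For glia, 8 of 10 probe sets were above the filter, 5 of them higher, with summed intensities of 8194 and 8007. Of 8 smooth muscle probe sets, 7 passed and 2 were higher (11096 and 9269). Of 17 probe sets for 13 cardiac myocyte markers, 4 passed, 3 of them higher, and 6 were under the floor in both arrays, with summed intensities of 1500 and 1892. Among the 3, Nppa (178 and 201) and Nppb (180 and 309) passed only through the array of co-cultured neurons, where they were high. Tnnt2 (293 and 408) was above the median in both arrays. Of 12 probe sets for skeletal muscle markers, 7 passed, with summed intensities of 3071 and 3907 over all 12. The 5 that were higher are all of Myh1, a fast myosin heavy chain gene, while Acta1 (-0.43) and Des (-0.05) were lower. No marker probe set above the filter had a log2 ratio of exactly 0. Those with both values under the floor have a ratio of 0 by construction. The part of these cells in the small positive ratios described next was not tested.

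The eIF3 subunits shared a sign as deposited. eIF3 is the large scaffold that holds the small ribosomal subunit and the mRNA-bound factors together. All 11 subunits measured here were above the filter and had a higher intensity in co-culture, with log2 ratios from 0.05 to 0.51 and a median of 0.21. Probe sets of other genes in the same range of signal numbered 1282, with a median of 0.02 and 54.0% higher. The count of 11 was the same after quantile normalization and lowess, where 51.4% and 50.3% of all probe sets above the filter were higher. It was 8 under scaling to the spiked controls, where Eif3b, Eif3d and Eif3j were slightly lower and 31.8% of all probe sets above the filter were higher.

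Eif3k, a peripheral subunit, had the largest ratio of the group. Its intensity was 1199 in neurons alone and 1713 in co-cultured neurons, 1.43-fold higher (log2 ratio 0.51). Next were Eif3a, the largest subunit, with 925 and 1127 (0.29), and Eif3f, with 2016 and 2455 (0.28). All 3 exceeded the SD of a single probe set in the brightest group (0.21), to which every eIF3 probe set belongs by its signal, and Eif3k alone exceeded that over all signals (0.29).

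Around 0.2 lay Eif3h (2268 and 2660, 0.23), Eif3m (2071 and 2397, 0.21), Eif3i (1622 and 1875, 0.21), Eif3c (2592 and 2967, 0.19) and Eif3l (2133 and 2402, 0.17). Each of these rests on 1 probe set. With Eif3h, 4 of the 11 subunits had a ratio above the SD of bright probe sets, and Eif3m was level with it. The share of all bright probe sets past that SD was not counted. Over all probe sets in the brightest of 4 equal groups by signal, the log2 ratios themselves had an SD of 0.23. Ratios of this size are therefore not particular to eIF3. The SD between probe sets of 1 gene also leaves out variation between cultures and arrays. The smallest ratios were those of Eif3d, a cap-contacting subunit (2226 and 2361, 0.09), the RNA-binding core subunit Eif3b (1256 and 1316, 0.07) and the loosely bound Eif3j (915 and 950, 0.05).

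**Figure D3:**
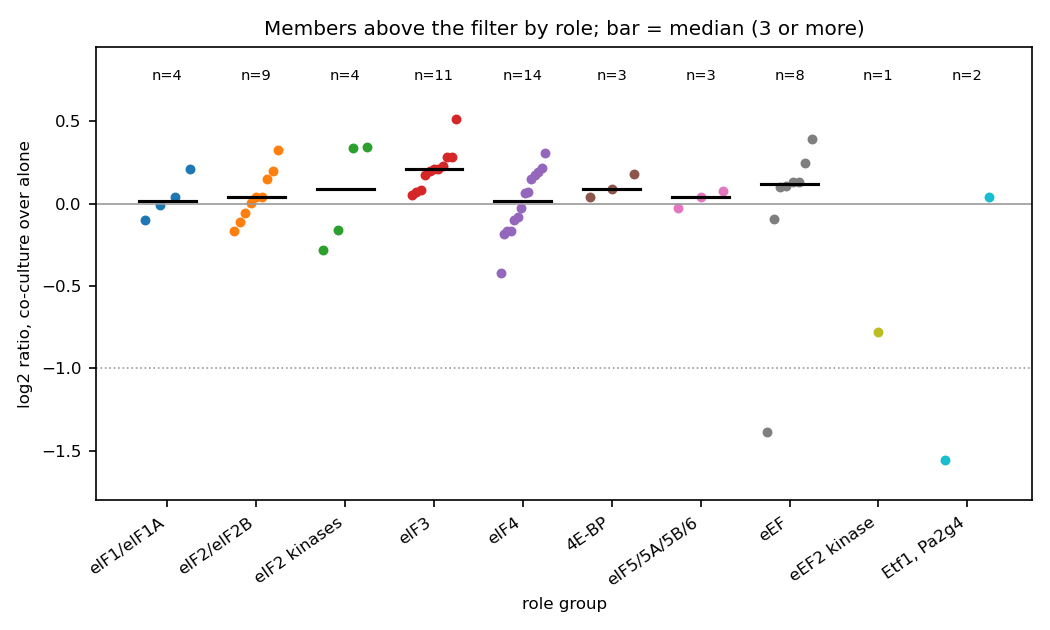
Log2 ratio of co-culture over alone for the 59 member probe sets above the filter, by role group, with a bar at the median where a group has 3 or more and a dotted line at 2-fold lower. The 11 points of eIF3 all lie above 0, while the eIF4 factors spread to both sides and Eef1a2 and Pa2g4 stand below the dotted line.

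Apart from the eEF1A pair, 4 of 5 elongation factor probe sets above the filter were higher in co-culture as deposited, with a median of 0.10. With the pair, 8 of 10 probe sets in this role group were above the filter, 6 of these were higher, and the median was 0.12. Other probe sets in the same range of signal had a median of 0.05, with 59.9% higher. That range reaches down to the signal of Eef1e1, which was lower in co-culture. The 6 higher probe sets lie in the brightest of 20 equal groups by signal, where 72.7% of all probe sets were higher with a median of 0.09. Eef1d, the guanine exchange subunit delta of the eEF1B complex, had 3056 in neurons alone and 4017 in co-cultured neurons (1.31-fold, log2 ratio 0.39). It was higher under every scaling tried, from 0.30 to 0.48.

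The remaining eEF1B subunits and eEF2 differed less. Eef1b2, the other exchange subunit, had 5810 and 6228 (0.10), and Eef1g, the structural subunit gamma, had 6013 and 6465 (0.10). Eef2, the translocase, had 5531 and 6064 (0.13). All 3 turned negative after quantile normalization (Eef1b2 to -0.06, Eef1g to -0.07 and Eef2 to -0.02), so these arrays do not settle their direction. Eef1e1, a scaffold of the multi-synthetase complex despite its name, had 1227 and 1150 (-0.09). After quantile normalization or lowess, 3 of the 8 probe sets were higher, against 51.4% and 50.3% of all probe sets above the filter.

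The kinase that blocks eEF2, Eef2k, was measured by 4 probe sets, of which 1 was above the filter. That probe set had 202 in neurons alone and 118 in co-cultured neurons (1.72-fold lower, log2 ratio -0.78). A second read 133 and 99.7 (-0.41), the third read 37.96 and 46.4, and the fourth 24.4 and 7.20, which is under the floor in both arrays. The first of these was under the array median in co-cultured neurons and passed only through the array of neurons alone, and the second was under it in both. At such intensities the spread between probe sets is largest (SD 0.36). With all 4 probe sets the median of Eef2k was -0.21.

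eIF2 and eIF2B, which load and recharge the initiator tRNA complex, were near 0. Of 10 probe sets 9 were above the filter, 6 were higher, and the median was 0.04. Other probe sets in the same range of signal had a median of -0.01, with 47.3% higher. Eif2s1, the alpha subunit of eIF2 that carries the regulatory phosphorylation site, had 1549 in neurons alone and 1941 in co-cultured neurons (log2 ratio 0.33, from 0.23 to 0.41 across the choices). The beta subunit gene Eif2s2 had 2240 and 2483 (0.15), whereas the gamma subunit gene Eif2s3 had 820 and 759 (-0.11). The 3 subunits of the complex thus did not share a sign.

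All 5 genes of eIF2B, the exchange factor, lay within 0.17 of 0 on their brightest probe set. Eif2b1 had 837 and 839 (0.00), Eif2b2 1051 and 1080 (0.04), Eif2b3 584 and 601 (0.04), Eif2b4 519 and 462 (-0.17) and Eif2b5 366 and 352 (-0.06). A second probe set of Eif2b5 below the filter had 133 and 87.8 (-0.60). Eif2d, an alternative initiation and recycling factor, had 318 and 365 (0.20).

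The kinases of eIF2 went to both sides. Eif2ak1, the haem-regulated kinase, was lower in co-culture on both probe sets (567 and 507, 516 and 425, log2 ratios -0.16 and -0.28). Eif2ak2 (PKR, activated by double-stranded RNA) had 166 and 211 (0.34), and Eif2ak3 (PERK, the kinase of the endoplasmic reticulum) had 151 and 191 (0.34). Both were under the median of the array of neurons alone and above that of the other array. Eif2ak4 (GCN2, the amino acid sensor) had 175 and 141, below the filter in both. The median of the group was 0.09 above the filter and -0.16 with all 5 probe sets, so the group has no common direction.

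Among the eIF4 factors, 14 of 16 probe sets were above the filter, 7 were higher and 7 lower, and the median was 0.02. Other probe sets in the same range of signal had a median of -0.02, with 47.0% higher. Eif4a1, the RNA helicase of the cap complex, had 5143 and 4867 (-0.08), and its paralogue Eif4a2, which is rich in brain, had 2579 and 2269 (-0.18). Eif4a3, a helicase of the exon junction complex, had 1341 and 1407 (0.07). The cap-binding protein gene Eif4e had 1904 and 1777 (-0.10) on its brighter probe set and 158 and 131 below the filter. Its relative Eif4e2, a cap-binding repressor, had 1006 and 1243 (0.31), the largest positive ratio of the group.

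The scaffold genes did not move together. Eif4g1 had 1939 and 1899 (-0.03) on its bright probe set and 297 and 222 (-0.42) on one for several transcripts, the group's largest ratio in size. Eif4g2, a relative that does not bind eIF4E, had 2996 and 3381 (0.17) and, on a second probe set, 921 and 965 (0.07). Eif4g3 had 530 and 616 (0.22). The helicase cofactor Eif4h had 2080 and 2374 (0.19). For the other cofactor, Eif4b, the probe sets differed in sign, with 990 and 881 (-0.17) on one and 812 and 900 (0.15) on the other, and it was the only one of the 5 genes with more than 1 probe set past the filter where this was so. Eif4enif1, which carries eIF4E into the nucleus, had 475 and 423 (-0.17).

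The eIF4E-binding proteins, which keep eIF4E from its scaffold until mTOR phosphorylates them, were all slightly higher: Eif4ebp1 with 935 and 1060 (0.18), Eif4ebp2 with 999 and 1060 (0.09) and Eif4ebp3 with 296 and 305 (0.04). Of other probe sets in their range of signal, 44.8% were higher. Under scaling to the spiked controls Eif4ebp2 and Eif4ebp3 turned negative. The genes of eIF5A, eIF5B and eIF6 were flat. Eif5a, the hypusine-bearing factor that helps ribosomes past difficult sequences, had 5182 and 5334 (0.04), the subunit-joining GTPase gene Eif5b 330 and 324 (-0.03) and Eif6, which keeps the large subunit apart, 1710 and 1802 (0.08). Of the genes named for eIF1 and eIF1A, Eif1a had 507 and 587 (0.21), Eif1ax 1492 and 1393 (-0.10), Eif1b 709 and 728 (0.04) and Eif1ad 573 and 569 (-0.01).

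The promoter windows were compared with these ratios. A run of at least 8 pyrimidines on the sense strand in the 50-base window was present in 16 of 53 member genes that had a promoter entry (30.2%), against 19.4% of all 33469 promoters of the table. Among eIF3 subunits it was 5 of 10, and among elongation factors and their modifying enzymes 6 of 8. Of the member genes above the filter, the 15 with such a run had a median log2 ratio of 0.13 with 12 higher, and the 35 without it had 0.04 with 22 higher. Of all probe sets above the filter, 46.0% were higher. In the brightest of 20 equal groups by signal, 72.7% were higher with a median of 0.09. Eef1a1, Eef1b2, Eef1g and Eef2, which have a run, lie in that group. The split was not matched for signal, and the part of signal in it was not tested. Both Eef1a1 and Eef1a2 have a run, and so does Pa2g4, whereas Eif3a, Eif3b and Eif3c do not. A run in this window is a description of the letters, since annotated starts can differ from the start used in these neurons. Of 9 genes listed as TOP mRNAs (Eef1a1, Eef1a2, Eef1b2, Eef1d, Eef1g, Eef2, Eif3f, Eif3h and Eif4b), 9 of 11 probe sets were higher, with a median of 0.13, and the others were Eef1a2 and 1 of Eif4b. After quantile normalization 6 of the 11 were higher and the median was 0.03, and after lowess 6 were higher with a median of 0.02. Of all probe sets above the filter, 51.4% and 50.3% were then higher.

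Other genes of the translation machinery were read from lists for comparison. Of 43 probe sets of cytosolic ribosomal proteins above the filter (of 47), 42 were higher in co-culture (97.7%), against 45.6% of the other probe sets in their range of signal. In the brightest of 20 equal groups by signal, which holds 37 of the 43, 72.7% of all probe sets were higher with a median of 0.09. The median log2 ratio of the ribosomal proteins was 0.20, which stood between 0.10 after quantile normalization and 0.29 after median scaling. The largest ratio was that of a dim probe set of Rpl7 (127 and 217, 0.77), whose bright probe set had 5547 and 6107 (0.14). The median of the list was close to that of eIF3 as deposited (0.21) and lower than it after quantile normalization (0.18 for eIF3). The 21 genes of cytosolic aminoacyl-tRNA synthetases and their scaffolds, which charge the tRNAs, had 16 of 23 probe sets higher and a median of 0.05, with Gars1 at 2811 and 2907. Over all probe sets above the filter, 46.0% were higher and the median was -0.02. Mitochondrial translation factors had 2 of 3 higher, with Tufm, the mitochondrial elongation factor Tu, at 954 and 1161 (0.28).

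Lists of control genes showed no large difference. Their counts stand beside 46.0% higher among all probe sets above the filter. The mTORC1 arm, the kinase pathway that frees eIF4E and acts on TOP mRNAs, had 10 of 22 probe sets higher and a median of -0.02. Its log2 ratios ran from -0.58 to 0.42. The list holds activators and inhibitors together, so its median does not describe the activity of the pathway. Its bright member Rheb, the activating GTPase, had 2520 and 2451. The integrated stress response, the programme set off when eIF2 is phosphorylated, had 11 of 15 higher and a median of 0.15. Its 1 probe set past 1.5-fold above the filter was that of Atf3, with 161 and 276 (1.72-fold). That probe set passed only through the array of co-cultured neurons, where it was high. Below the filter, a probe set of Trib3 had 89.1 and 143 (1.60-fold). Atf4, the central transcription factor of the response, had 2875 and 2976 (0.05). Other termination and quality control factors had 5 of 11 higher (median -0.08, with Gspt1 at 1793 and 1860). Poly(A) and cap-binding proteins outside the rule had 12 of 21 (median 0.07, with Pabpc4 at 3032 and 3426). Genes of eIF5A hypusination and polyamine metabolism had 6 of 12 (median -0.00, with Oaz1 at 5884 and 6430).

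**Figure D4:**
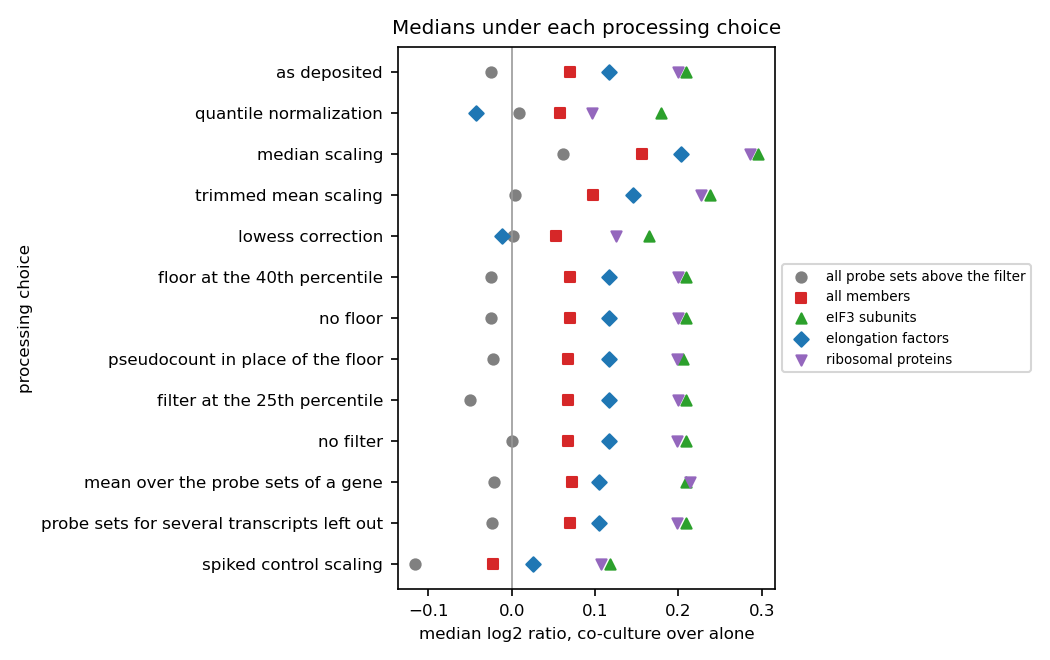
Median log2 ratio, co-cultured neurons over neurons alone (horizontal axis), under each processing choice (rows) for all probe sets above the filter, the members, the eIF3 subunits, the elongation factors and the ribosomal proteins. The eIF3 median stays above 0 in every row, between 0.12 and 0.30, while that of the elongation factors is -0.04 after quantile normalization and -0.01 after lowess.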

How the data were processed

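RNA of 2 rat neuron samples was measured on 1-colour Affymetrix arrays. The authors deposited 1 linear intensity per probe set and array. The series' design text names dChip 1.3 for quantification, and MAS5 appears in the submitters' processing notes. Which of them gave the intensity, with which background step and scaling, is not given in the sources used here. Precision is limited by the number of arrays.

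Of 15923 probe sets, 57 controls were left out, and 12783 had 1 symbol in the platform annotation, 312 several and 2771 none. Symbols were updated by gene identifier to the GRCr8 RefSeq gene table, which changed no member's symbol. Intensities were used as deposited, floored at the pooled 20th percentile (39.6), and log2 was taken. The filter was the array median in at least 1 array. No test was made, with 1 array per group. A gene's value is that of its brightest probe set.

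Members and lists were chosen with earlier results of these data known. All members are named. Of each related list, up to 2 genes past 1.5-fold, or else the brightest, were named. Pairs of values in the report give neurons alone first and co-cultured neurons second. Promoter sequences came from RefSeq. Python 3.11.15, numpy 2.4.6, pandas 2.3.3 and statsmodels 0.14.6 were used. The ratio and call steps were tested on simulated data with large changes planted in bright probe sets and little noise. That test does not bear on the small differences reported here.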

Additional observations from a re-analysis of the deposited data

How the results depend on the processing

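The 12 alternatives comprised 4 scalings of the arrays, 3 treatments of low values, 2 filters, 2 ways of handling a gene's probe sets and, chosen after seeing the data, scaling to the spiked controls. Under all of them Pa2g4 and Eef1a2 were past 2-fold lower and no member was 2-fold higher. No paired analysis was possible because there is 1 array per condition. The median of all probe sets was -0.02 as deposited and lay between -0.12 (spiked controls) and 0.06 (median scaling) across the scalings.

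Scaling to the spiked controls, under which 31.8% of all probe sets were higher, gave 26 higher and 33 lower members, a member median of -0.022 over probe sets and -0.020 over genes, and negative medians for the synthetases (-0.037), poly(A) and cap-binding proteins (-0.021), eIF1 and eIF1A (-0.079), eIF2 kinases (-0.0047), eIF2 and eIF2B (-0.052), eIF4 (-0.074), eIF4E-binding proteins (-0.0065) and eIF5 to eIF6 (-0.051). After lowess, the Eef1a1 probe set for several transcripts was at -0.0097, the eIF4 median at -0.0050 and the elongation factor median at -0.011 with 3 higher. After quantile normalization the elongation factor median was -0.043, also with 3 higher. Of all probe sets above the filter, 50.3% were higher after lowess and 51.4% after quantile normalization. The eIF2 kinase median was -0.16 under a filter at the 25th percentile and under none, and that of Eef2k -0.21 with none, where dim probe sets enter. Averaging all probe sets of a gene put eIF4 at -0.010. The mTORC1 arm turned positive under quantile (0.025), median (0.070) and trimmed mean scaling (0.012), lowess (0.0042) and the gene mean (0.0029). The hypusine and polyamine list did so under median (0.082) and trimmed mean scaling (0.023), the gene mean (0.038) and without probe sets for several transcripts (0.0026), and the termination list under median scaling (0.0097). Apart from the scalings and filters named, the cause of these shifts was not tested.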
